A study of Mus musculus with 36 samples.

Results

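The 10 genes described here are the ligand Fgf9, the receptors Fgfr1 and Fgfr2, the ETS transcription factors Etv1, Etv4 and Etv5, the ERK phosphatase Dusp6 and the feedback inhibitors Spry1, Spry2 and Spry4. They were picked by symbol from 19938 genes measured on Affymetrix Mouse Gene 1.0 ST arrays, and all 10 had at least 1 probe set with a single annotated symbol. Where a gene had several such probe sets, the one with the highest mean stood for it. The arrays held RNA of germ cells and supporting cells, the somatic lineage behind testicular Sertoli and ovarian granulosa cells, from XX and XY mouse fetuses at 11.5, 12.5 and 13.5 days post coitum (dpc). Each of the 12 groups had 3 arrays, of which 2 were used for XX germ cells of 12.5 dpc, and this limits the precision of every value.

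Germ cells of both sexes and all stages were sorted by an Oct4 reporter from progeny of C57BL/6NJ on a mixed background. XX supporting cells of all stages and XY supporting cells of 11.5 dpc were sorted by Tg(Sry-EGFP)92Ei from progeny of CD-1. XY supporting cells of 12.5 and 13.5 dpc were sorted by Tg(Sox9-cre/ERT2)1Msan/J from progeny of C57BL/6. In supporting cells, therefore, sex cannot be told apart from line and strain at 12.5 and 13.5 dpc. Nor can any change from 11.5 dpc to 12.5 or 13.5 dpc in XY supporting cells. Germ and supporting cells shared no line, so cell type cannot be told apart from line and strain either. Sex at 11.5 dpc, the step from 12.5 to 13.5 dpc and all comparisons within germ cells or within XX supporting cells stayed inside 1 line. Gonads of a sex were pooled before sorting, and nothing in the labels says whether replicate arrays stand for separate pools. The p-values therefore set a difference only against the spread among these arrays, pooled over all groups, and part of that spread may be technical.

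FGF9 is a secreted growth factor that binds FGF receptors on the cell surface. The receptors signal through RAS and the kinases RAF, MEK and ERK, which switch on Etv1, Etv4 and Etv5 and, as negative feedback, Dusp6 and the Sprouty genes. In the fetal testis FGF9 from supporting cells is known to sustain Sox9 through Fgfr2 and to keep XY germ cells from entering meiosis. Other growth factors use the same relay, and in germ cells Etv5 and Dusp6 also respond to other signals.

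The 250 bases before the transcription start are shown for the ligand, the receptor Fgfr2 and 3 targets whose level differed between the sexes, with the first window where a gene has 2. They come from RefSeq (GRCm38.p6, strand of the gene), which matched 7 of the 10 genes in 9 windows, and Fgfr1, Etv4 and Spry4 had no entry in the table used. Capitals mark AGGAAG and CGGAAG, 6-base forms of the ETS site, and ACAAT, a core of the SOX site, on either strand. CCGGAAG, which contains CGGAAG, was searched too. The Fgf9 window lies inside the annotated span of the gene (chr14:58070671-58112854), before an internal start. Fgf9 lies at chr14:58072436-58072685 on the plus strand, Fgfr2 at chr7:130266809-130267058 on the minus strand, Etv1 at chr12:38779832-38780081 on the plus strand, Etv5 at chr16:22439571-22439820 on the minus strand and Dusp6 at chr10:99262981-99263230 on the plus strand.
Fgf9: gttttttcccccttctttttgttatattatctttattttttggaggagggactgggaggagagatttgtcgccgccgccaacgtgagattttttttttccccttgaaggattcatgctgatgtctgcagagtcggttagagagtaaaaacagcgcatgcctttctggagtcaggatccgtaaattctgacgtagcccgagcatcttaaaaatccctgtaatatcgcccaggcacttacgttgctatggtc
Fgfr2: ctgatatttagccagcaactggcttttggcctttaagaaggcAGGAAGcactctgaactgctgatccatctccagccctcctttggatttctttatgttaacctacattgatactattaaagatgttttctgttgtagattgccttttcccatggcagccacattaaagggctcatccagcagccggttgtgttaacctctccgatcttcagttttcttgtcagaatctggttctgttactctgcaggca
Etv1: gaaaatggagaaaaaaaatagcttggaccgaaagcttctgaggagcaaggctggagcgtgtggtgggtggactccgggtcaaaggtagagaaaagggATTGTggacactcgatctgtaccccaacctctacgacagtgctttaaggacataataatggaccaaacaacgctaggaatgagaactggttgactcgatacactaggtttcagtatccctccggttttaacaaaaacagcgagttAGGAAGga
Etv5: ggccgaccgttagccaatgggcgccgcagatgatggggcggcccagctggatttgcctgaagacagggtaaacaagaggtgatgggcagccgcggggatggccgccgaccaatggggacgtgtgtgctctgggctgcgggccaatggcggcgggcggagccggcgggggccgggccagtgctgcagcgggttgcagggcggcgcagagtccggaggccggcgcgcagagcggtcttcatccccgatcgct
Dusp6: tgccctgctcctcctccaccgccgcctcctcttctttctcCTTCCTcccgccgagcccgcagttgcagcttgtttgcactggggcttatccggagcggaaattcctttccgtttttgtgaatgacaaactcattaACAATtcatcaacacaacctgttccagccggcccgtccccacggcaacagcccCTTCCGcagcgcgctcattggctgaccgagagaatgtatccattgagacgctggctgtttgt
CCGGAAG was in 0 of the 9 windows, against 6.91% of 32851 windows of all genes. CGGAAG was in the window of Dusp6 alone, against 13.6% of all windows, and AGGAAG was in windows of Dusp6, Etv1 and Fgfr2, against 29.5%. ACAAT was in windows of Dusp6 and Etv1, against 27.7% of all windows. The motifs were picked after several had been looked at in these windows, and a match is a description of letters, not of a bound site.

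The array labelled XX germ cells of 12.5 dpc, replicate 3, went against its label. Its median over 10 germ cell markers was 5.86 on the log2 scale, against 9.71 to 10.83 in the other germ cell arrays, and its median over 6 supporting or somatic gonad markers was 10.45. It was left out, which leaves 35 arrays, and values of the 10 genes that involve its group are given with it where they moved. In supporting cells the germ marker median was 5.78 to 6.63 in XX arrays and 5.69 to 6.10 in XY arrays. By limma at adjusted p under 0.05, 6, 6 and 7 of 8 pregranulosa markers were lower in XY than in XX supporting cells at the 3 stages. Of these 8, 1, 0 and 0 were higher. Of 10 Sertoli markers 5, 10 and 10 were higher in XY and 0 were lower at any stage. Foxl2, a granulosa marker, stayed at 6.02 to 6.82 in supporting cells, close to the 5.68 to 6.85 of germ cells, although Fst reached 12.52. The deposited values of each array also fell into interleaved sets of table rows on slightly different scales, so each result was repeated with these sets aligned. Levels are log2 RMA values of 1 probe set and are not compared between genes, differences are in log2 with their standard error (SE), and a gene rose or fell only where limma's Benjamini-Hochberg adjusted p over all 19938 genes was under 0.05. Array medians over all genes lay between 6.54 and 7.01, and whether levels near or below these stand above background was not tested. This holds for Etv4 and Spry1 in most groups, Fgf9 outside XY supporting cells and Etv5 in XX supporting cells. In a sorted population, fewer expressing cells and less RNA per cell cannot be told apart.

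**Figure D1:**
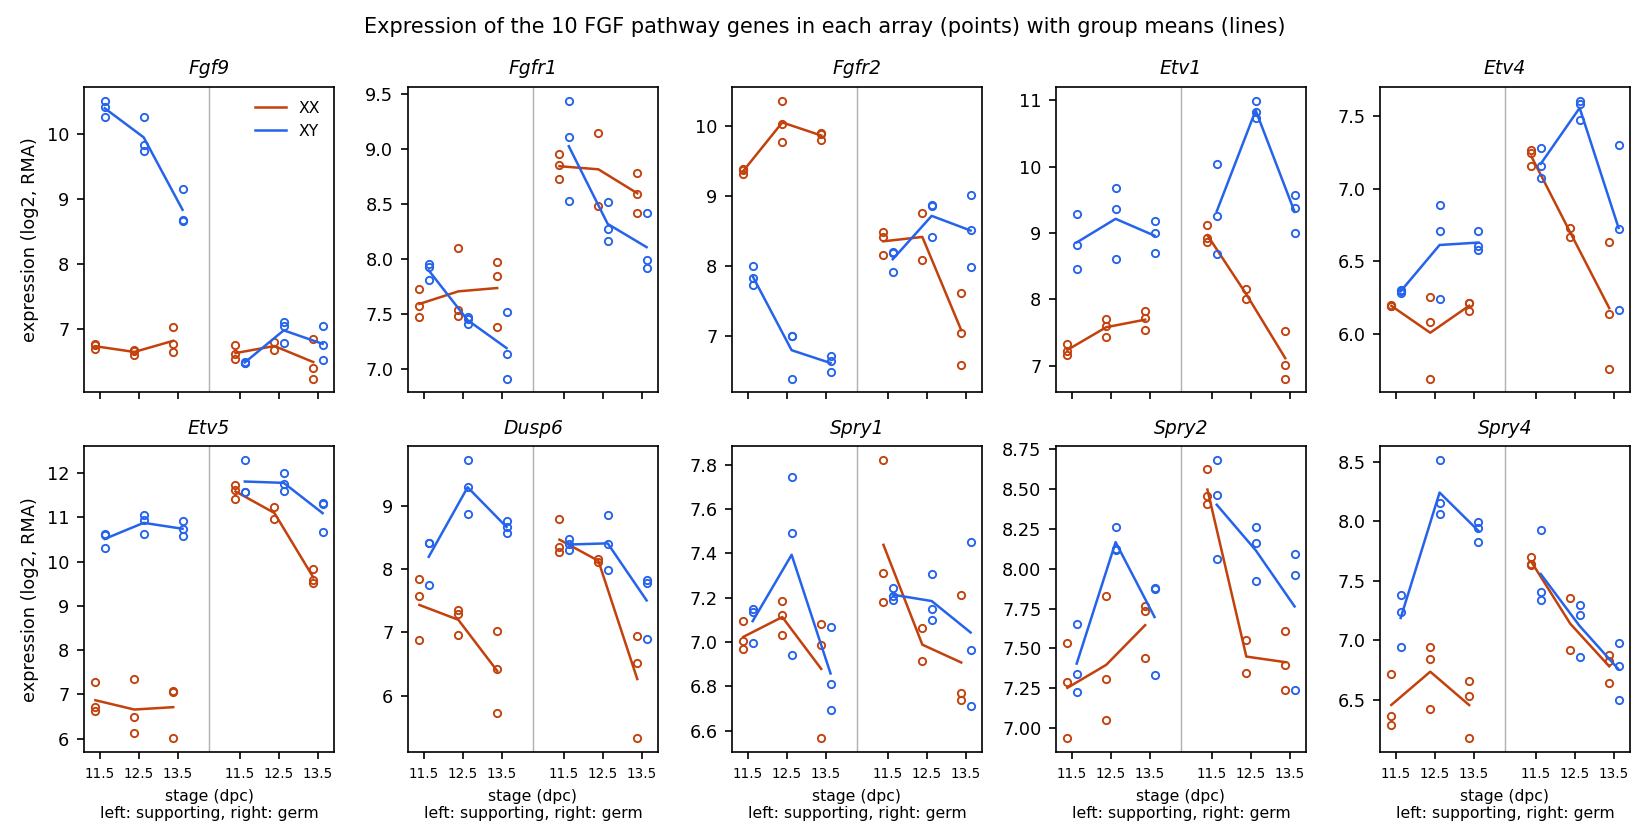
Expression of the 10 genes in each of 35 arrays (points, log2 RMA value on the vertical axis, with its own range for each gene) and group means (lines) by stage in dpc, with supporting cells left and germ cells right of the grey line, XX in orange and XY in blue. Fgf9 stands apart in XY supporting cells, Fgfr2 is highest in XX supporting cells, and Etv5 is low only in XX supporting cells.

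Fgf9, the ligand, was high in XY supporting cells and in no other group. Its level was 10.41, 10.51 and 10.26 in the XY supporting arrays at 11.5 dpc, 10.27, 9.74 and 9.84 at 12.5 dpc, and 8.69, 8.66 and 9.16 at 13.5 dpc. XX supporting arrays lay between 6.61 and 7.04 and germ cell arrays between 6.24 and 7.11, where neighbours in the order of group means overlapped except XX supporting cells of 11.5 and 12.5 dpc. The XY supporting arrays thus did not overlap any other array of the study, and within them the ranges of 11.5 and 12.5 dpc overlapped while that of 13.5 dpc lay below both. XY exceeded XX supporting cells by 3.65 (SE 0.19, adjusted p = 7.57e-21), a 12.6-fold difference, at 11.5 dpc. The difference was 3.30 (SE 0.19, adjusted p = 6.11e-20) at 12.5 dpc and 2.01 (SE 0.19, adjusted p = 1.8e-12) at 13.5 dpc. Fgf9 fell by 1.11 (SE 0.19, adjusted p = 0.000258) from 12.5 to 13.5 dpc within the Sox9-cre line. From 11.5 to 12.5 dpc the difference was -0.45 (SE 0.19, adjusted p = 0.104), and it passed the test with row sets aligned, at -0.52 (adjusted p = 0.0208), with the arrays centred or quantile normalised, with array weights, and without XY supporting replicate 1 of 12.5 dpc.

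Germ cells gave no sex difference in Fgf9 past the test in the fit reported here. XY minus XX in germ cells was -0.14 (SE 0.19), 0.24 (SE 0.21) and 0.28 (SE 0.19) at the 3 stages, the second being 0.22 with the left-out array. The third passed with array weights (0.45, adjusted p = 0.0412). The sex difference of germ cells minus that of supporting cells was -3.06 (SE 0.28, adjusted p = 5.82e-12) at 12.5 dpc and -1.73 (SE 0.26, adjusted p = 1.69e-06) at 13.5 dpc. The genes whose 12 group means followed those of Fgf9 most closely, among 7377 genes that spanned at least 1 on the log2 scale, were Ppargc1a (Pearson r = 0.9896), a coactivator of mitochondrial genes, Ppp1r3c (r = 0.9829), a glycogen-targeting phosphatase subunit, St3gal4 (r = 0.9734), a sialyltransferase, BC006965 (r = 0.9698) and Cbln4 (r = 0.9651), a secreted cerebellin. These r values describe group means that share arrays and are carried by the XY supporting groups.

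Fgfr2, a receptor that FGF9 binds, went the other way, with its highest levels in XX supporting cells. XX supporting arrays read 9.32, 9.40 and 9.38 at 11.5 dpc, 10.03, 10.37 and 9.77 at 12.5 dpc, and 9.89, 9.81 and 9.91 at 13.5 dpc. XY supporting arrays read 7.73, 7.83 and 8.00, then 7.00, 6.39 and 7.00, then 6.64, 6.49 and 6.72. The sexes did not overlap at any stage, and all XX supporting arrays lay above all germ cell arrays, which ranged from 6.58 to 9.02. In supporting cells XY minus XX was -1.51 (SE 0.23, adjusted p = 4.6e-06) at 11.5 dpc, -3.26 (SE 0.23, adjusted p = 8.94e-17) at 12.5 dpc and -3.25 (SE 0.23, adjusted p = 1.01e-16) at 13.5 dpc, which is 9.54-fold lower in XY. The difference at 13.5 dpc minus that at 11.5 dpc was -1.75 (SE 0.32, adjusted p = 0.000136). In XY cells Fgfr2 fell by 1.06 (SE 0.23, adjusted p = 0.00057) from 11.5 to 12.5 dpc, a step that also changed the line. In XX cells, inside 1 line, the arrays of 11.5 dpc lay below those of both later stages. A rise from 11.5 dpc did not pass in the fit reported here. With row sets aligned it passed to 12.5 dpc (0.63, adjusted p = 0.000668) and to 13.5 dpc (0.54, adjusted p = 0.00221). It also passed with array weights (0.77, adjusted p = 0.00441, and 0.52, adjusted p = 0.00366).

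In germ cells Fgfr2 differed between the sexes at 13.5 dpc, in the opposite direction. XX germ cell arrays read 7.62, 6.58 and 7.05 there, and XY germ cell arrays 7.99, 9.02 and 8.52, without overlap. XY minus XX was 1.43 (SE 0.23, adjusted p = 7.13e-06), against -0.26 (SE 0.23) at 11.5 dpc and 0.30 (SE 0.25) at 12.5 dpc, which was -0.08 (adjusted p = 0.898) with the left-out array, and the change from 11.5 to 13.5 dpc was 1.68 (SE 0.32, adjusted p = 0.000572). The XX germ cells moved: Fgfr2 fell by 1.33 (SE 0.25, adjusted p = 0.000349) from 12.5 to 13.5 dpc, and by 1.72 with the left-out array. Germ and supporting cells differed in the sex difference of Fgfr2 by 3.56 (SE 0.34, adjusted p = 1.86e-11; 3.17 with the left-out array) at 12.5 dpc and by 4.68 (SE 0.32, adjusted p = 4.98e-16) at 13.5 dpc.

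Fgfr1, a second receptor of the family, was higher in germ than in supporting cells. Germ cell arrays ranged from 7.92 to 9.44 and supporting cell arrays from 6.91 to 8.10, and neighbouring groups overlapped in the order of levels except XX supporting cells of 11.5 dpc and XY supporting cells of 12.5 dpc. Averaged over the 6 pairs of groups, germ minus supporting was 1.03 (SE 0.09, adjusted p = 1.21e-14). No XY minus XX difference of Fgfr1 passed the test with the deposited values. In supporting cells it was 0.31 (SE 0.21), -0.26 (SE 0.21) and -0.55 (SE 0.21, adjusted p = 0.0923) at the 3 stages, and with row sets aligned it passed at 11.5 dpc (0.41, adjusted p = 0.0407) and at 13.5 dpc (-0.37, adjusted p = 0.0288), with opposite signs. The difference at 13.5 dpc also passed with arrays centred (-0.55, adjusted p = 0.0309), with quantile normalisation (-0.59, adjusted p = 0.0171) and with array weights (-0.60, adjusted p = 0.000381). It passed too without XX replicate 2 (-0.72, adjusted p = 0.0372) or XY replicate 3 (-0.71, adjusted p = 0.0438). The change of the supporting sex difference from 11.5 to 13.5 dpc did not pass in the fit reported here. It passed with row sets aligned (-0.78, adjusted p = 0.00329), arrays centred (-0.91, adjusted p = 0.0233) and quantile normalisation (-0.99, adjusted p = 0.00966). Array weights (-0.89, adjusted p = 0.00044) and only the arrays compared (-0.85, adjusted p = 0.0435) gave that call too. In germ cells at 13.5 dpc XY minus XX was -0.49 (SE 0.21, adjusted p = 0.17), and -0.54 (adjusted p = 0.0409) with quantile normalisation. Between 11.5 and 13.5 dpc Fgfr1 fell by 0.92 (SE 0.21, adjusted p = 0.00246) in XY germ cells. It fell by 0.71 (SE 0.21, adjusted p = 0.024) in XY supporting cells, whose line changed too. The first call was lost without replicate 3 of XY germ cells at 11.5 dpc (-0.71, adjusted p = 0.0626). The second was lost without XY supporting replicate 2 or 3 of 11.5 dpc or replicate 1 or 2 of 13.5 dpc, with adjusted p from 0.0734 to 0.178. In XX germ cells the change over that interval passed with row sets aligned (-0.55, adjusted p = 0.00175).

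Etv5, an ETS factor induced by FGF and ERK signalling, showed the largest XY excess of the 10 genes in supporting cells at 12.5 and 13.5 dpc. XY supporting arrays read 10.60, 10.62 and 10.31 at 11.5 dpc, 11.06, 10.63 and 10.93 at 12.5 dpc, and 10.72, 10.58 and 10.92 at 13.5 dpc. XX supporting arrays read 6.62, 6.71 and 7.27, then 7.36, 6.49 and 6.13, then 7.07, 6.01 and 7.06, and every XX array lay below every XY array. The difference was 3.64 (SE 0.25, adjusted p = 2.9e-16), 4.21 (SE 0.25, adjusted p = 2.75e-19) and 4.03 (SE 0.25, adjusted p = 1.67e-18) at the 3 stages, or 12.5-, 18.6- and 16.3-fold. From 12.5 to 13.5 dpc in XY supporting cells, when Fgf9 fell, Etv5 differed by -0.13 (95% interval -0.63 to 0.37, adjusted p = 0.858). The germ marker median of these arrays, given because germ cells also express Etv5, was 5.69 to 6.10 in XY and 5.78 to 6.63 in XX.

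In germ cells Etv5 was high at the outset and became lower in XX cells. XX germ cell arrays read 11.41, 11.61 and 11.74 at 11.5 dpc, 10.97 and 11.22 at 12.5 dpc, and 9.83, 9.51 and 9.59 at 13.5 dpc. XY germ cell arrays read 11.57, 11.56 and 12.29, then 11.75, 11.99 and 11.59, then 10.66, 11.30 and 11.33. The sexes overlapped at 11.5 dpc and had separated by 13.5 dpc, when XY exceeded XX by 1.45 (SE 0.25, adjusted p = 3.05e-05). In XX germ cells Etv5 fell by 1.94 (SE 0.25, adjusted p = 5.2e-08) between 11.5 and 13.5 dpc, and in XY germ cells the difference was -0.71 (SE 0.25, adjusted p = 0.0734). The XY difference passed with arrays centred (-0.68, adjusted p = 0.0467) and with the mean of both Etv5 probe sets (-0.72, adjusted p = 0.019). The step from 12.5 to 13.5 dpc in XX cells was -1.45 (SE 0.28, adjusted p = 0.000418) and was -0.76 (adjusted p = 0.138) with the left-out array, in which Etv5 read 9.02. With that array XY minus XX at 12.5 dpc was 1.37 (adjusted p = 0.0204), against 0.68 (SE 0.28, adjusted p = 0.22) without it. The change of the sex difference from 11.5 to 13.5 dpc was 1.23 (SE 0.35, adjusted p = 0.0375), and 8 of the 35 arrays, each left out in turn, took its adjusted p to between 0.066 and 0.119. With all 36 arrays the call was lost as well (adjusted p = 0.298). The 8 were replicates 2 and 3 of XX and 1 and 2 of XY germ cells at 11.5 dpc, and replicates 2 and 3 of both sexes at 13.5 dpc. A second Etv5 probe set followed the first over the 12 group means with r = 0.9918.

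Etv1, a related ETS factor, rose and fell in XY germ cells within a day each way. XY germ cell arrays read 9.26, 8.68 and 10.04 at 11.5 dpc, 10.82, 10.99 and 10.73 at 12.5 dpc, and 9.01, 9.38 and 9.58 at 13.5 dpc. The 12.5 dpc arrays lay above all other arrays of the study. Etv1 rose by 1.52 (SE 0.24, adjusted p = 4.61e-05) and then fell by 1.53 (SE 0.24, adjusted p = 3.37e-05). In XX germ cells it read 9.12, 8.92 and 8.86, then 8.15 and 8.00, then 7.53, 6.81 and 7.01, a fall of 1.85 (SE 0.24, adjusted p = 8.41e-08) from 11.5 to 13.5 dpc. XY thereby exceeded XX germ cells by 2.77 (SE 0.27, adjusted p = 2.02e-10), or 6.82-fold, at 12.5 dpc and by 2.20 (SE 0.24, adjusted p = 1.55e-09) at 13.5 dpc. The first of these was 2.52 with the left-out array. The sex difference was 0.36 (SE 0.24) at 11.5 dpc, and its change to 13.5 dpc was 1.84 (SE 0.34, adjusted p = 0.000441).

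In supporting cells Etv1 was higher in XY at every stage, without overlap. The XY arrays ranged from 8.46 to 9.67 and the XX arrays from 7.17 to 7.83. The difference was 1.62 (SE 0.24, adjusted p = 4.85e-06), 1.63 (SE 0.24, adjusted p = 6.45e-07) and 1.26 (SE 0.24, adjusted p = 8.54e-05) at the 3 stages. At 12.5 dpc the sex difference was larger in germ cells by 1.14 (SE 0.36, adjusted p = 0.0373), a call lost with the left-out array (0.89, adjusted p = 0.17), with the mean of both Etv1 probe sets (0.71, adjusted p = 0.232), and without any of 7 arrays, each left out in turn (adjusted p from 0.0557 to 0.167). These were replicates 1 and 2 of both sexes of germ cells, replicates 1 and 3 of XX and replicate 3 of XY supporting cells at 12.5 dpc.

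Etv4, the third member of this ETS subfamily, moved least. Its group means lay between 6.01 and 7.55, highest in XY germ cells of 12.5 dpc, which read 7.58, 7.60 and 7.47 and overlapped no other group. XX germ cells of 12.5 dpc read 6.73 and 6.67, a difference of 0.86 (SE 0.23, adjusted p = 0.0371), or 1.06 (adjusted p = 0.0042) with the left-out array. That call was lost without any 1 of the 5 arrays compared (adjusted p from 0.0599 to 0.345), and with row sets aligned the value was 0.41 (adjusted p = 0.0778). The supporting cell difference at 12.5 dpc, 0.60 (SE 0.21, adjusted p = 0.0429), had overlapping ranges. It was lost without replicate 1 or 3 of either sex (adjusted p from 0.0677 to 0.248). At 13.5 dpc XX (6.16 to 6.21) and XY supporting arrays (6.58 to 6.71) did not overlap. That difference passed only in other settings, among them row sets aligned (0.45, adjusted p = 0.00229) and array weights (0.46, adjusted p = 0.000761). The germ cell difference at 13.5 dpc likewise passed with row sets aligned (0.34, adjusted p = 0.0258), arrays centred (0.52, adjusted p = 0.033) and array weights (0.76, adjusted p = 0.00104). The fall of Etv4 in XX germ cells, by 1.04 (SE 0.21, adjusted p = 0.000184) from 11.5 to 13.5 dpc, was kept without any single array.

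Dusp6, a phosphatase that switches off ERK and is itself induced by it, was higher in XY than in XX supporting cells at 12.5 and 13.5 dpc, stages at which the line differed too. XY supporting arrays read 8.42, 8.41 and 7.76 at 11.5 dpc, 9.72, 8.87 and 9.30 at 12.5 dpc, and 8.76, 8.66 and 8.58 at 13.5 dpc. XX supporting arrays read 7.85, 6.89 and 7.57, then 6.97, 7.35 and 7.29, then 6.43, 5.72 and 7.03. The sexes overlapped at 11.5 dpc and did not at the later stages. XY minus XX was 0.76 (SE 0.29, adjusted p = 0.22), 2.09 (SE 0.29, adjusted p = 1.58e-07) and 2.27 (SE 0.29, adjusted p = 2.27e-08), the last a 4.84-fold difference. With array weights the difference at 11.5 dpc passed (0.90, adjusted p = 0.00526). The change from 11.5 to 13.5 dpc was 1.51 (SE 0.41, adjusted p = 0.0192). It was lost without XX replicate 1 or XY replicate 3 of 11.5 dpc or XX replicate 2 of 13.5 dpc (adjusted p from 0.0795 to 0.137), and with all 36 arrays (adjusted p = 0.0759). The rise of Dusp6 by 1.10 (SE 0.29, adjusted p = 0.00612) from 11.5 to 12.5 dpc in XY cells was 0.65 (adjusted p = 0.106) with row sets aligned. It was also lost without XY replicate 3 of 11.5 dpc (0.88, adjusted p = 0.0657) or replicate 1 of 12.5 dpc (0.89, adjusted p = 0.0797).

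In XX germ cells Dusp6 gave the largest fall of the 10 genes. It read 8.79, 8.34 and 8.27 at 11.5 dpc, 8.11 and 8.16 at 12.5 dpc, and 6.52, 6.94 and 5.33 at 13.5 dpc, a fall of 2.20 (SE 0.29, adjusted p = 1.14e-07) without overlap between the first and last stage. XY germ cells read 8.47, 8.39 and 8.30, then 8.39, 8.85 and 7.98, then 6.90, 7.78 and 7.83, a difference of -0.88 (SE 0.29, adjusted p = 0.0549) from 11.5 to 13.5 dpc. That difference passed with dim genes left out (adjusted p = 0.0477), an intensity trend (adjusted p = 0.0463) and only the arrays compared (adjusted p = 0.0156). It passed too without XY replicate 3 of 13.5 dpc (-1.05, adjusted p = 0.0414). At 13.5 dpc XY exceeded XX germ cells by 1.24 (SE 0.29, adjusted p = 0.00248), with overlapping ranges. The difference was 0.78 (adjusted p = 0.127) without XX replicate 3, the lowest array.

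Of the Sprouty genes, which encode inhibitors of the RAS to ERK relay, Spry4 was higher in XY than in XX supporting cells at every stage. At 12.5 and 13.5 dpc the line differed too. XY supporting arrays read 6.94, 7.38 and 7.24 at 11.5 dpc, 8.06, 8.15 and 8.51 at 12.5 dpc, and 7.99, 7.82 and 7.94 at 13.5 dpc, and the XX supporting arrays lay between 6.18 and 6.94. XY did not overlap XX at any stage, and the XY arrays of 12.5 dpc lay above all others. Those of 13.5 dpc came next and overlapped only XY germ cells of 11.5 dpc, whose highest array read 7.93. The difference was 0.73 (SE 0.20, adjusted p = 0.0209), 1.51 (SE 0.20, adjusted p = 3.49e-08) and 1.46 (SE 0.20, adjusted p = 7.55e-08). The first was lost without replicate 2 or 3 of either sex (adjusted p from 0.0974 to 0.151), and with only the arrays compared (adjusted p = 0.0636). In germ cells no sex difference of Spry4 passed the test, with -0.10 (SE 0.20), -0.02 (SE 0.22) and -0.03 (SE 0.20) at the 3 stages, the second being 0.03 with the left-out array. The sex difference of germ cells minus that of supporting cells was -1.52 (SE 0.30, adjusted p = 0.000191) at 12.5 dpc and -1.49 (SE 0.28, adjusted p = 8.03e-05) at 13.5 dpc for Spry4. Spry4 fell in germ cells of both sexes between 11.5 and 13.5 dpc, by 0.88 (SE 0.20, adjusted p = 0.000911) in XX and by 0.80 (SE 0.20, adjusted p = 0.00501) in XY. The XY fall was lost without replicate 1 of 11.5 dpc (-0.62, adjusted p = 0.0852) or of 13.5 dpc (-0.67, adjusted p = 0.0514).

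Spry2 differed between the sexes in supporting cells at 12.5 dpc, where XY arrays read 8.12, 8.12 and 8.26 and XX arrays 7.83, 7.06 and 7.31. The difference was 0.77 (SE 0.21, adjusted p = 0.00837), and 0.60 (adjusted p = 0.105) without XX replicate 2, the lowest array. At 13.5 dpc it was 0.05 (SE 0.21). In XX germ cells Spry2 fell by 1.08 (SE 0.21, adjusted p = 0.000168) from 11.5 to 13.5 dpc. Its fall from 11.5 to 12.5 dpc there, by 1.05 (SE 0.24, adjusted p = 0.0113), was lost without XX replicate 2 of 11.5 dpc (-0.98, adjusted p = 0.0552) or of 12.5 dpc (-0.94, adjusted p = 0.246), and with the left-out array (-0.81, adjusted p = 0.0576). Spry1 gave no difference past the test in any of the 23 comparisons in the fit reported here. Its group means lay between 6.86 and 7.44, near the array medians given above. Its fall in XX germ cells from 11.5 to 13.5 dpc passed with arrays centred (-0.495, adjusted p = 0.0292) and quantile normalised (-0.48, adjusted p = 0.0283). Array weights gave -0.53 (adjusted p = 0.0264). Germ minus supporting passed with row sets aligned (0.14, adjusted p = 0.0036), and a few other comparisons passed in single settings.

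**Figure D2:**
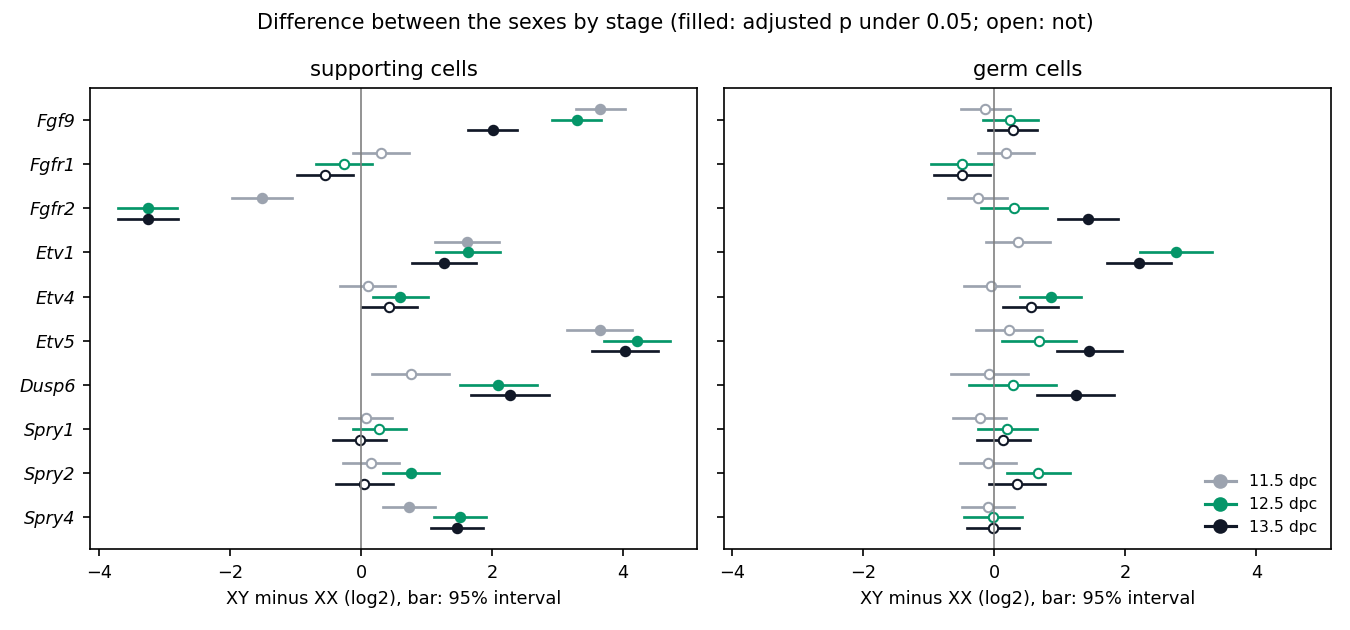
XY minus XX difference on the log2 scale (points, with 95% intervals of the limma fit as bars) for the 10 genes in supporting cells (left) and germ cells (right) at 11.5 (grey), 12.5 (green) and 13.5 dpc (black), with filled points where the adjusted p was under 0.05. In supporting cells Etv5 reaches 4.21 and Fgfr2 -3.26, and in germ cells Etv1 reaches 2.77.

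Counted over the 10 genes, the sexes of supporting cells differed at every stage. At 11.5 dpc 4 genes were higher and 1 was lower in XY, where 3.32% of all genes passed the test. At 12.5 dpc 7 were higher and 1 lower (13.4% of all genes), and at 13.5 dpc 5 were higher and 1 lower (12.2%). The median difference of the 10 genes was 0.52, 1.14 and 0.85, beside all-gene medians of -0.06, 0.04 and -0.02. In germ cells 0 of the 10 passed at 11.5 dpc by limma (0.0251% of all genes), and 0 also had an unadjusted p under 0.05. At 12.5 dpc 2 were higher in XY (1.8%) and at 13.5 dpc 4 were higher (9.21%), and none was lower at either stage. The median differences in germ cells were -0.09, 0.29 and 0.45, beside 0.02, 0.02 and 0.07 for all genes. With the left-out array 3 genes passed at 12.5 dpc. Of 10 germ cell markers 0 passed at 12.5 dpc by limma, with a median difference of 0.14. At 13.5 dpc 4 of these markers were higher and 1 was lower in XY, with a median of 0.71, and 2 of 4 mesonephric or epithelial markers were higher, with a median of 0.61. The germ marker median of an array was 9.71 to 10.46 in XX and 9.82 to 10.39 in XY germ cells there. Their part in the result was not tested.

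Over time, most of the 10 genes fell in XX germ cells. From 11.5 to 13.5 dpc 7 fell and none rose in XX germ cells (15.3% of all genes passed in either direction), with a median of -1.06 beside -0.14 for all genes. Of the 10 germ cell markers 6 fell and 2 rose in the same comparison, with a median of -1.01. Of 6 dissociation stress genes 1 fell (median -0.54), and of 4 mesonephric or epithelial markers 2 fell (median -0.57). Epcam and Cdh1 of that last list were higher in germ than in supporting arrays, as given above. The part of these marker lists in the falls was not tested. The step from 11.5 to 12.5 dpc held 1 of these calls (1.15%) and the step from 12.5 to 13.5 dpc held 4 falls (8.38%), and with the left-out array they held 0 and 3. One of the 4, the fall of Etv1 by 0.96 (SE 0.27, adjusted p = 0.0192), was lost without replicate 1 or 2 of 12.5 dpc or replicate 2 or 3 of 13.5 dpc (adjusted p from 0.0878 to 0.111). With the left-out array it was -1.21 (adjusted p = 0.00312). In XY germ cells 1 gene rose from 11.5 to 12.5 dpc (1.31%), 2 fell from 12.5 to 13.5 dpc (2.38%) and 2 fell over the whole interval (7.09%). The fall of Etv4 from 12.5 to 13.5 dpc, by 0.82 (SE 0.21, adjusted p = 0.016), was lost without XY replicate 1 of 13.5 dpc (-0.54, adjusted p = 0.328), and without 3 other arrays, replicates 1 and 2 of 12.5 dpc and replicate 3 of 13.5 dpc, the lowest adjusted p of the 4 being 0.0528.

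In XX supporting cells 0 of the 10 genes passed from 11.5 to 12.5 dpc (2.95% of all genes) and 0 from 12.5 to 13.5 dpc (0.542%) by limma, with 1 gene at an unadjusted p under 0.05 in each. Over the whole interval 1 passed (4.1%), Dusp6, which fell by 1.04 (SE 0.29, adjusted p = 0.0243). That call was lost without replicate 1 or 3 of 11.5 dpc or replicate 1 or 2 of 13.5 dpc (adjusted p from 0.0656 to 0.395). The rise of Fgfr2 from 11.5 dpc passed only in other settings, given with that gene above. In XY supporting cells 3 rose and 1 fell from 11.5 to 12.5 dpc (14.8%), a step in which the all-gene median was 0.21 and the line changed. The risers were Dusp6, Spry2 (0.76, SE 0.21, adjusted p = 0.00983) and Spry4 (1.06, SE 0.20, adjusted p = 9.16e-05). The rise of Spry2 was 0.43 (adjusted p = 0.155) with quantile normalisation and 0.67 (adjusted p = 0.0566) without XY replicate 2 of 11.5 dpc. From 12.5 to 13.5 dpc 1 gene, Fgf9, fell (0.918%). Over the whole interval, in which the line changed too, 1 rose and 3 fell (8.87%). The falls were those of Fgf9, by 1.56 (SE 0.19, adjusted p = 8.38e-09), Fgfr2, by 1.24 (SE 0.23, adjusted p = 6.37e-05), and Fgfr1. The rise was that of Spry4, at 0.73 (SE 0.20, adjusted p = 0.00973), which was lost without replicate 1 of 11.5 dpc (0.61, adjusted p = 0.0959) or of 13.5 dpc (0.70, adjusted p = 0.0506).

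**Figure D3:**
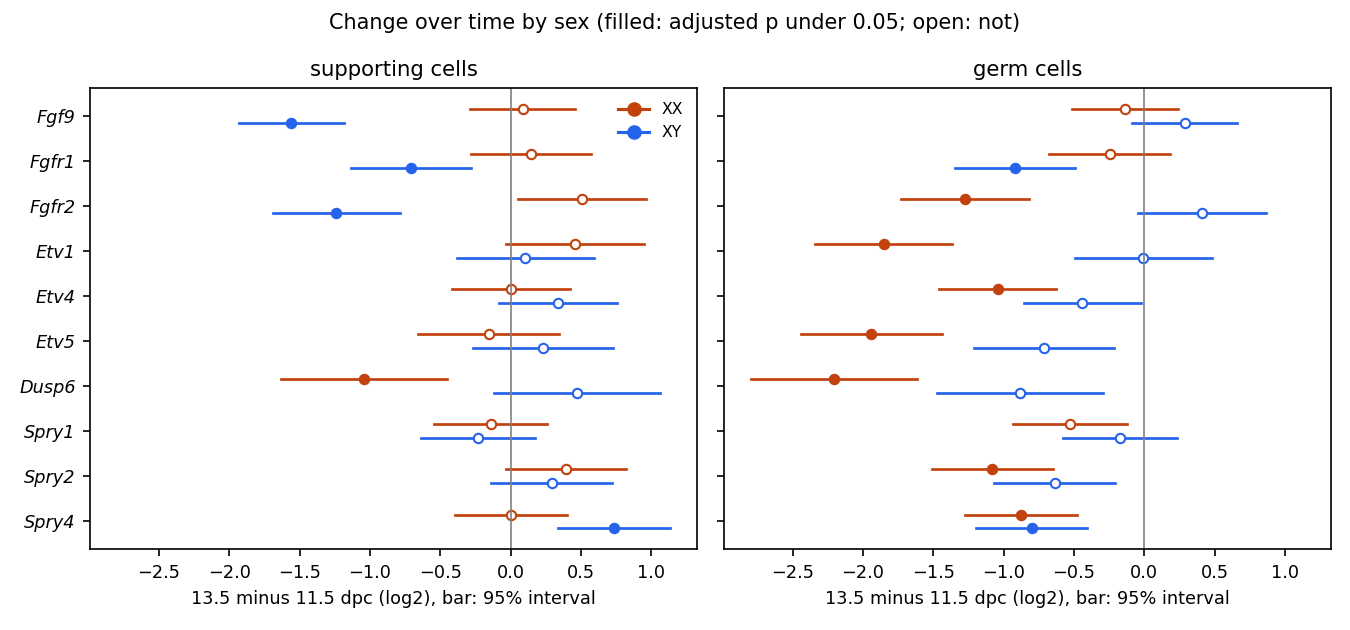
Difference between 13.5 and 11.5 dpc on the log2 scale (points, with 95% intervals of the limma fit as bars) for the 10 genes in supporting cells (left) and germ cells (right), XX in orange and XY in blue, filled where the adjusted p was under 0.05. In XX germ cells 7 of 10 genes fell, with Dusp6 lowest at -2.20. In XY supporting cells, whose line changed after 11.5 dpc, Fgf9 fell by 1.56.

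Sex differences that changed with stage or cell type were counted in the same fit. In supporting cells the sex difference of 3 of the 10 genes changed from 11.5 to 13.5 dpc (4.26% of all genes), and in germ cells that of 3 (3.24%). The sex difference of 6 of the 10 genes differed between germ and supporting cells at 12.5 dpc (8.83%) and that of 4 at 13.5 dpc (11.2%). With the left-out array the first count was 5. Averaged over sex and stage, 7 of the 10 differed between germ and supporting cells, where 47.2% of all genes did, so the share of the 10 is to be read against that background, and line and strain differed along with cell type. Etv5 was higher in germ cells by 2.44 (SE 0.10, adjusted p = 1.18e-26), Etv1 by 0.68 (SE 0.10), Etv4 by 0.60 (SE 0.09) and Spry2 by 0.35 (SE 0.09, adjusted p = 0.000922). Fgf9 was lower in germ cells, at -1.54 (SE 0.08, adjusted p = 1.27e-23). The value for Fgfr2, -0.23 (SE 0.09, adjusted p = 0.0411), was lost without any 1 of 17 of the 35 arrays (adjusted p from 0.0503 to 0.149), which came from all 12 groups. With the left-out array it was -0.16 (adjusted p = 0.236).

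Over the 12 group means, Pearson r among the 7 target genes ran from 0.43 (Etv5 and Spry1) to 0.86 (Dusp6 and Spry4), and that of Fgf9 with them from -0.14 (Etv4) to 0.56 (Spry4), so the ranges overlapped. It was 0.85 for Etv1 and Etv4, 0.80 for Etv4 and Etv5 and 0.67 for Etv5 and Dusp6. For Fgf9 it was 0.56 with Spry4, 0.54 with Dusp6 and 0.21 with Etv5. Fgfr2 had r of -0.74 with Spry4 and -0.64 with Etv5. These describe 12 points that share arrays and normalisation. With row sets aligned, r among the targets ran from 0.22 (Spry1 and Spry4) to 0.92 (Etv4 and Spry2). That of Fgf9 with them then ran from -0.14 (Etv4) to 0.60 (Spry4). By the same measure the genes closest to Etv5 were Cemip2 (r = 0.9768), Rrm1 (r = 0.9641), Lrrc8d (r = 0.9627), Prc1 (r = 0.9620) and Socs2 (r = 0.9581), and those closest to Etv1 were Mb21d2 (r = 0.9592), Tnks2 (r = 0.9516), Fryl (r = 0.8971), Gna13 (r = 0.8844) and Smg8 (r = 0.8782). Those closest to Dusp6 were Xpnpep1 (r = 0.9537), Sox13 (r = 0.9530), Tpd52 (r = 0.9326), Lmnb1 (r = 0.9175) and Fasn (r = 0.9135). With row sets aligned, r of the same genes was 0.94 to 0.97 with Etv5, 0.80 to 0.93 with Etv1 and 0.87 to 0.96 with Dusp6.

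The wider pathway was read from 4 lists: 21 other FGF ligands, 13 other receptors and co-receptors, 14 genes of the RAS to ERK relay and 22 genes of ERK feedback and immediate response, counted as measured here. In supporting cells at 12.5 dpc 2 ligands were higher and 1 lower in XY, 4 receptors or co-receptors were higher and 1 lower, 1 relay gene was higher and 3 lower, and 4 feedback genes were higher and 1 lower, where 13.4% of all genes passed. The list medians lay between 0.04 and 0.19, beside 0.04 for all genes. At 13.5 dpc the counts were 2 and 1 for ligands, 1 and 1 for receptors, 1 and 1 for the relay, and 3 and 4 for feedback genes (12.2% of all genes), with medians from -0.10 to 0.16. At 11.5 dpc 1 ligand was higher and none lower, 1 receptor was higher and 1 lower, 1 relay gene was higher and 1 lower, and 3 feedback genes were higher and none lower (3.32% of all genes). Single genes thus differed widely while the list medians stayed near those of all genes.

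Fgf13, an intracellular FGF homologue that is not secreted, gave the largest difference of these lists in XY supporting cells. It was higher in XY by 0.99 (SE 0.25) at 11.5 dpc, 3.72 (SE 0.25) at 12.5 dpc and 4.03 (SE 0.25, adjusted p = 2.75e-18) at 13.5 dpc. Fgf18, a secreted ligand, was higher by 1.89 (SE 0.25) at 12.5 dpc and 2.37 (SE 0.25) at 13.5 dpc. The heparan sulfate carriers went both ways, with Gpc6 higher by 1.73 (SE 0.22) and Sdc2 lower, at -1.40 (SE 0.26), at 12.5 dpc. Spred2, an inhibitor of RAS to ERK signalling, was higher by 1.02 (SE 0.22) at 11.5 dpc and 2.22 (SE 0.22) at 13.5 dpc. Rps6ka3, an ERK-activated kinase on the X chromosome, was lower in XY at all 3 stages, at -0.83, -1.81 and -1.33 (SE 0.19 each). Map2k1, which encodes MEK1, was higher by 1.46 (SE 0.22) at 12.5 dpc, and Ccnd1 (1.42, SE 0.25) and Elk3 (1.29, SE 0.21) were higher at 11.5 dpc. Fos, an early ERK target that also marks dissociation stress, was lower in XY at 13.5 dpc, at -1.38 (SE 0.23). There the median of 6 measured dissociation stress genes was 8.90 to 9.39 in XX and 8.42 to 8.78 in XY supporting arrays, and its part in the result was not tested.

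In germ cells the lists gave 0 calls at 11.5 dpc (0.0251% of all genes), and 1 receptor or co-receptor higher and 1 relay gene lower in XY at 12.5 dpc (1.8%). At 13.5 dpc, where 9.21% of all genes passed, 0 of 21 ligands were higher and 1 lower, 2 of 13 receptors or co-receptors were higher and 1 lower, 1 of 14 relay genes was higher and 2 lower, and 3 of 22 feedback genes were higher and 1 lower. Sdc4, a heparan sulfate carrier, was higher in XY by 1.02 (SE 0.26, adjusted p = 0.0244) at 12.5 dpc and 1.70 (SE 0.23) at 13.5 dpc. Araf, a RAF kinase, was at -0.86 (SE 0.24, adjusted p = 0.0414) at 12.5 dpc, and at -0.49 (adjusted p = 0.179) with row sets aligned. At 13.5 dpc Gpc4 was higher by 1.54 (SE 0.20), and the ERK feedback genes Dusp4 (1.21, SE 0.26) and Il17rd (1.09, SE 0.21) were higher as well. Ccnd1, a cyclin of the G1 phase, was lower at -1.41 (SE 0.25), and Fgf13 at -1.07 (SE 0.25), the opposite sign to supporting cells. Between the cell types, Gpc4 (-3.19, SE 0.08), Sdc2 (-2.60, SE 0.11), Egr1 (-1.90, SE 0.10), Nf1 (-1.84, SE 0.09), Phlda1 (-1.73, SE 0.09) and Egr2 (-1.60, SE 0.14) were lower in germ cells. The dissociation stress median was 6.68 to 7.83 in germ and 7.78 to 9.39 in supporting arrays, and its part in the values of Egr1 and Egr2 was not tested.

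The 75 calls among the 230 tests of the 10 genes were then recomputed after aligning the row sets. Of these, 73 were kept and 18 further ones appeared, and none of the 75 changed sign. The median shift of a difference was 0.12 and the largest was 0.48, so differences near that size depend on how the deposited values are scaled.

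**Figure D4:**
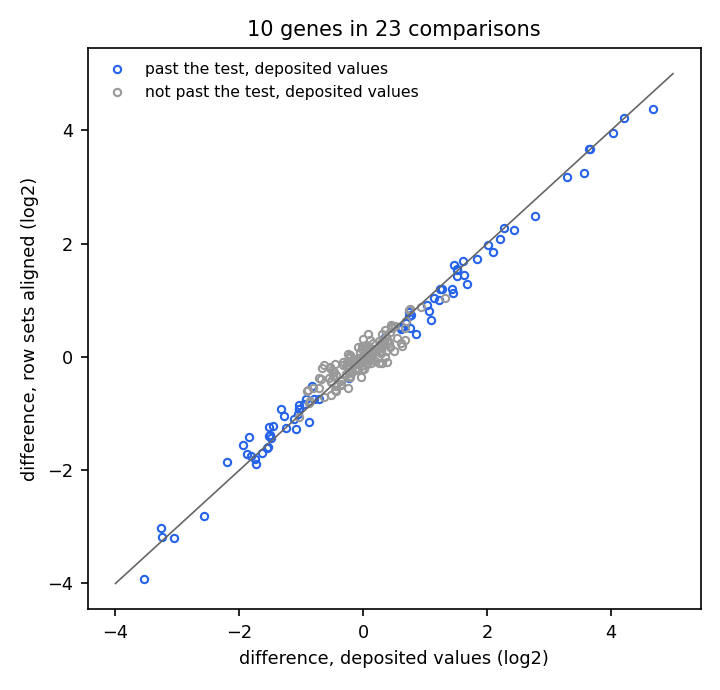
Differences of the 10 genes in 23 comparisons, from the deposited values (horizontal axis, log2) and with the row sets aligned (vertical axis, log2), blue where the deposited values passed the test and grey where they did not. Points lie along the line of equality, with a median distance of 0.12 and a largest distance of 0.48.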

How the data were processed

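Expression was read from the deposited table of log2 values per probe set, which the authors made with RMA (background correction, normalisation and probe summary), per the submitters' processing notes. No version of RMA was given. No scan date or slide was given, so no batch was modelled. Of 35557 probe sets, 23410 had a platform annotation, 21789 of them with 1 symbol, which left 19938 genes. The probe set with the highest mean stood for a gene with several (999 genes). All 10 genes and the wider lists are named by rule: every member, the 5 genes with the closest group means for Fgf9, Etv1, Etv5 and Dusp6, and up to 6 list genes with the largest called difference for each XY minus XX comparison and for germ minus supporting. Some genes of the relay list are not reported here. Members and lists were chosen with earlier results of these data known.

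A single linear model with 12 group means was fitted to 35 arrays with limma 3.58.1 in R 4.3.3 (lmFit, contrasts, eBayes; 23 residual degrees of freedom). Two-sided p-values were adjusted by Benjamini-Hochberg within each of 23 comparisons. The script was tested on simulated data. Tables and plots used Python 3.11.15, pandas 2.3.3 and matplotlib 3.10.9. Within each array, table rows fell into interleaved sets on their own linear scale (107 sets, slopes 1.0099 to 1.059, medians up to 0.74 apart). Their origin is not stated, so deposited values were kept and alignment of the sets was an alternative. Array medians lay between 6.54 and 7.01, and within-group correlations of the arrays used between 0.967 and 0.9948. No filter on dim genes was applied. The alternatives were centring, quantile normalisation, aligned row sets, all 36 arrays, the mean of probe sets, a dim filter, only the arrays compared, array weights, an intensity trend, a replicate block and leaving out each array.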

Additional observations from a re-analysis of the deposited data

Results flagged for a closer look

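Sex differences that changed with stage passed the test of the change in 6 cases. In supporting cells the XY minus XX difference changed from 11.5 to 13.5 dpc by -1.64 for Fgf9, -1.75 for Fgfr2 and 1.51 for Dusp6. The stages of the XY cells coincide there with a change of reporter line and strain. In germ cells, which stayed in 1 line, it changed by 1.68 for Fgfr2, 1.84 for Etv1 and 1.23 for Etv5. The call for Dusp6 was lost without any 1 of 3 arrays (adjusted p up to 0.137) and that for Etv5 without any 1 of 8 (up to 0.119), named with those genes above. With all 36 arrays both calls were lost (adjusted p = 0.0759 for Dusp6 and 0.298 for Etv5).

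Sex differences that differed between the cell types passed the test of that difference in 10 cases, given as germ minus supporting. At 12.5 dpc the values were -3.06 for Fgf9, 3.56 for Fgfr2, 1.14 for Etv1, -3.54 for Etv5, -1.82 for Dusp6 and -1.52 for Spry4. At 13.5 dpc they were -1.73 for Fgf9, 4.68 for Fgfr2, -2.58 for Etv5 and -1.49 for Spry4. The Etv1 call at 12.5 dpc was lost without any 1 of 7 arrays (adjusted p up to 0.167), and the Dusp6 call with array weights (-1.95, adjusted p = 0.0616). With the left-out array the 12.5 dpc values were -3.07 for Fgf9, 3.17 for Fgfr2, 0.89 for Etv1 (adjusted p = 0.17), -2.84 for Etv5, -2.06 for Dusp6 and -1.48 for Spry4. Cell type cannot be told apart from line and strain. At both stages the supporting cell difference coincides with line and strain.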

How the results depend on the processing

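Of the 75 calls among the 10 genes, 54 were kept in all 45 alternative fits and 21 were lost in at least 1, and no call changed sign. Of the 75, 56 were kept without any single array. The number of the 10 genes past the test moved by more than 1.5 times as follows, with the cause not tested. With row sets aligned it was 1 for germ XY minus XX at 12.5 dpc, 1 for XX supporting cells from 11.5 to 12.5 dpc, 2 for the same cells from 11.5 to 13.5 dpc, 2 for XX germ cells from 11.5 to 12.5 dpc, 4 for XY germ cells from 11.5 to 13.5 dpc and 5 for the change of the supporting sex difference. With arrays centred it was 2 for XX and 2 for XY germ cells from 11.5 to 12.5 dpc and 4 for XY germ cells from 11.5 to 13.5 dpc, and with quantile normalisation it was 2 for XY germ cells from 11.5 to 12.5 dpc. With all 36 arrays it was 0 for XX supporting cells from 11.5 to 13.5 dpc, 0 for XX germ cells from 11.5 to 12.5 dpc and 1 for XY germ cells from 12.5 to 13.5 dpc. With only the arrays compared, it was 1 for germ XY minus XX at 12.5 dpc, 2 for XX supporting cells from 11.5 to 13.5 dpc and 0 for XX germ cells from 11.5 to 12.5 dpc, and with the mean of probe sets it was 2 for XX supporting cells from 11.5 to 13.5 dpc. With array weights it was 1 and 7 for germ XY minus XX at 12.5 and 13.5 dpc, 1 and 3 for XX supporting cells from 11.5 to 12.5 and to 13.5 dpc, 2 for XY supporting cells from 12.5 to 13.5 dpc, 0 for XX germ cells from 11.5 to 12.5 dpc and 5 for the change of the supporting sex difference.

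Leaving out 1 array at a time gave 1 to 1 for germ XY minus XX at 12.5 dpc, 0 to 1 for XX germ cells from 11.5 to 12.5 dpc, 1 to 2 for XY germ cells from 11.5 to 12.5 dpc and again from 12.5 to 13.5 dpc, 1 to 4 for XY germ cells from 11.5 to 13.5 dpc, 0 to 1 for XX supporting cells from 11.5 to 12.5 dpc and to 13.5 dpc, 2 to 4 for XY supporting cells from 11.5 to 13.5 dpc, 2 to 3 and 2 to 4 for the change of the sex difference in supporting and in germ cells. The dim filter and the intensity trend moved none of these counts by that much. The numbers given to replicates did not pair the samples (17 pairs, correlations of deviations from -0.52 to 0.13, 1 of them over 0.1). With the replicate number as a block, 0 of the 75 calls were lost and 0 were gained, and 8 of the 10 genes still passed for XY minus XX in supporting cells at 12.5 dpc. With 2 or 3 arrays a group, line and strain confounded with sex in supporting cells at 2 of 3 stages, and no dim filter, small differences remain uncertain.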
